A study of Mus musculus with 10 samples.

Results

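Transcripts of 10 genes of regulatory T cells and of T cell costimulation were followed in mouse Panc02 tumors with and without targeting of Cda, the gene of cytidine deaminase. The genes were taken by name from the 37417 genes of the count table. They were the transcription factors Foxp3 and Ikzf2 (Helios), the interleukin-2 receptor alpha chain Il2ra (CD25), the chemokine receptors Ccr8 and Ccr4, the costimulatory receptors Icos and Cd28, and the TNF receptor family members Tnfrsf4 (OX40), Tnfrsf9 (4-1BB) and Tnfrsf18 (GITR).

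Panc02 is a mouse pancreatic cancer cell line. Cells carrying doxycycline-inducible Cas9 with a nontargeting guide (sgNT, control) or a guide to Cda (sgCda) were injected subcutaneously into the right flank of C57BL/6J mice, and 5 tumors of each group were collected 16 days later. All mice were labelled wild type and 12 weeks old, and none of the 10 tumors was labelled with an immunotherapy. The guide was carried by the injected cancer cells, while T cells belong to the host. The study's methods describe cloning of the edited cells by limiting dilution and keep pooled clones for survival experiments. Which clones gave these tumors is not given in the sources used here, and neither is it stated that each tumor came from its own mouse, so that p-values measure only the spread between these tumors.

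Regulatory T cells are CD4+ T cells that restrain other lymphocytes, and Foxp3 is the transcription factor that defines them. They carry the high-affinity interleukin-2 receptor and consume that cytokine, and those inside tumors are known for high CCR8, ICOS, OX40, GITR and 4-1BB on their surface. Apart from Foxp3 these genes are shared with other cells: activated CD8+ T cells and NK cells also make 4-1BB, and CD28 is carried by most T cells, where it delivers the second signal after antigen recognition.

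Each tumor held between 28051907 and 39484964 reads assigned to genes, and a count of 3 corresponded to 0.0760 to 0.107 CPM, the count scaled to a fixed library total. Cda itself read 10.1 to 14.7 CPM in sgNT tumors and 7.47 to 12.5 CPM in sgCda tumors, a log2 fold change of -0.30 ± 0.17 (SE) with an edgeR quasi-likelihood adjusted p of 0.9996. Bulk tumor RNA includes host transcripts of Cda, and a guide-induced mutation need not remove the transcript. The epithelial keratin Krt8 read 353 to 645 CPM and mesothelin (Msln) 44.1 to 95.2 CPM over the tumors. The epithelial adhesion gene Epcam read 0.911 to 1.25 CPM in sgNT and 1.01 to 3.43 CPM in sgCda tumors, 4 of which lay above the sgNT range, with a log2 fold change of 0.78 ± 0.32 (SE) and an edgeR adjusted p of 0.9996. These markers were picked after their values were seen. All 13 T cell markers were detected in every tumor. sgCda tumor 3 stood apart, with the highest sum of the 4 CD3 complex genes (265 CPM, against 82.9 to 194 CPM in the other tumors), the highest NK cell sum (166 CPM) and the highest skeletal muscle sum (1723 CPM, against 0.538 to 416 CPM). sgCda tumor 4 had the largest share of uniquely aligned reads outside genes, 18.4% against 10.3% to 14.9% in the other tumors. In bulk RNA, fewer cells of a type and less RNA per cell cannot be told apart.

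The genes lie on 5 chromosomes, and some are close neighbours. In the GRCm38 build, Tnfrsf4 (chr4:156013843-156016612) and Tnfrsf18 (chr4:156026164-156028895) were separated by 9551 bases with 0 protein-coding genes between them, both on the plus strand. Cd28 (chr1:60716800-60773359) and Icos (chr1:60977927-61000320) were 204.6 kb apart, with 1 protein-coding gene, Ctla4, between them. Foxp3 lay at chrX:7573644-7595245, Ikzf2 at chr1:69531214-69687245, Il2ra at chr2:11642807-11693193, Ccr8 at chr9:120092114-120094906, Ccr4 at chr9:114490316-114504916 and Tnfrsf9 at chr4:150914562-150946102. Foxp3, Ikzf2 and Tnfrsf18 share exonic bases with other genes, Foxp3 with the noncoding gene Flicr on its own strand. The counting setting for strand is not given in the sources used here, so reads of these 3 genes and of their overlapping partners may not have been fully separated.

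Upstream sequence is shown for the 3 TNF receptor family genes, of which a pair is adjacent and moved together across tumors. It is also shown for Foxp3, which defines the regulatory T cell, and for Il2ra. The stretches come from RefSeq (GRCm38.p6), 5′ to 3′ on the plus strand, and stop short of exons of protein-coding transcripts. Upstream here means before the RefSeq start site. The Foxp3 and Tnfrsf9 stretches lie inside the gene spans given above. The last bases of the Foxp3 and Tnfrsf18 stretches lie 110 and 159 bases before that site. Of the 10 genes, 7 matched the promoter table. Capitals mark a match, on either strand, to the NFAT core GGAAAA, both matches of which lie on the minus strand and so appear as the reverse complement, or to an NF-kB motif that opens with GGGA, leaves 4 bases free and closes with a pair of cytosines. The AP-1 motif TGANTCA was searched as well. So were the STAT motif TTCNNNGAA and the forkhead motif GTAAACA. Overlaps between motifs were not removed.
Tnfrsf4, chr4:156013611-156013694: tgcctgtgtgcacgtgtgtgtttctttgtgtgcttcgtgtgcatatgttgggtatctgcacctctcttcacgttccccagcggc
Tnfrsf18, chr4:156026072-156026163: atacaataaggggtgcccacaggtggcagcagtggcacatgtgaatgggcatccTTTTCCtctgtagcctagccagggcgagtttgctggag
Tnfrsf9, chr4:150919905-150920154: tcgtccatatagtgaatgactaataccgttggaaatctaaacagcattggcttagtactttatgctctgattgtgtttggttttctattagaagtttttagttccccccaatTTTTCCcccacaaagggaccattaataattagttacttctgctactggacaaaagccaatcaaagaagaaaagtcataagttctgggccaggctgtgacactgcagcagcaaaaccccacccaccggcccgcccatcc
Foxp3, chrX:7579426-7579566: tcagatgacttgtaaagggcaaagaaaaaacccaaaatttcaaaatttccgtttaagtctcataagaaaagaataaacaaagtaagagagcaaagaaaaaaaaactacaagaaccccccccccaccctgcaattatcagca
Il2ra, chr2:11642542-11642791: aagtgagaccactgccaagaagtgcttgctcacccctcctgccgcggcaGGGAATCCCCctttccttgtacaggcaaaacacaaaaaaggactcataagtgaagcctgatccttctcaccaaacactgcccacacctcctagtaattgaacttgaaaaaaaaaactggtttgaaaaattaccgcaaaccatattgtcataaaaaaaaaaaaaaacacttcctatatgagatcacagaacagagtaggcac

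The NFAT letters began at base 55 of the Tnfrsf18 stretch and at base 113 of the Tnfrsf9 stretch. Over the same stretch of all 32851 promoters in the table, 8.70% and 20.4% held them. The NF-kB letters of Il2ra began at base 50. Over that stretch, 17.6% of promoters held a match at any position. The Tnfrsf4 and Foxp3 stretches held none of the 5 motifs. The Foxp3 stretch also lies in a noncoding exon of Flicr.

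All 10 genes were detected in every tumor, and their levels spanned a wide range. Per kilobase of exon (RPKM, mean ± SD over the 10 tumors), Tnfrsf9 was highest at 16.7 ± 6.22, followed by Tnfrsf4 at 7.53 ± 1.32, Tnfrsf18 at 7.04 ± 1.47, Icos at 6.59 ± 2.23 and Il2ra at 4.12 ± 1.15. Lower were Ccr8 at 3.40 ± 0.948, Cd28 at 2.66 ± 0.689, Ikzf2 at 1.68 ± 0.354, Foxp3 at 0.872 ± 0.185 and Ccr4 at 0.388 ± 0.0722. Neighbours in this order did not always hold their place: Tnfrsf4 exceeded Tnfrsf18 in 9 of 10 tumors, Tnfrsf18 exceeded Icos in 7, Il2ra exceeded Ccr8 in 8, Ccr8 exceeded Cd28 in 8 and Cd28 exceeded Ikzf2 in 9. The steps from Tnfrsf9 to Tnfrsf4, from Icos to Il2ra, from Ikzf2 to Foxp3 and from Foxp3 to Ccr4 held in 10 of 10 tumors.

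**Figure D1:**
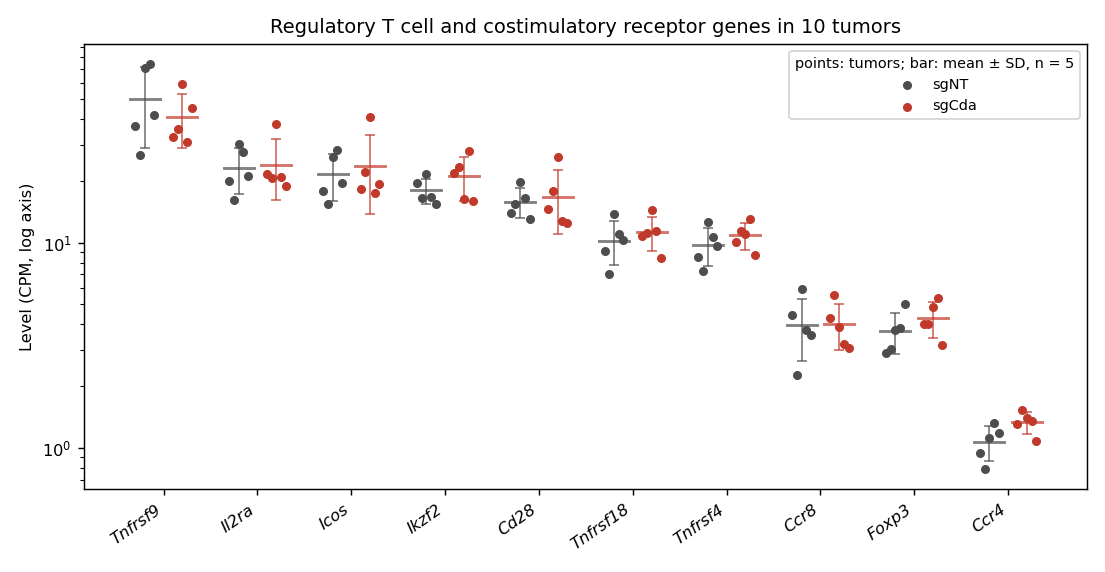
Level of each gene in CPM (log axis) in the 5 sgNT (grey) and 5 sgCda (red) tumors. Points are tumors and bars are the mean ± SD. The 2 groups overlap for every gene, and Tnfrsf9 is the gene with the lower mean in sgCda tumors (40.8 against 50.1 CPM).

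The sgCda tumors were compared with the sgNT tumors. The question was whether a Cda guide in the cancer cells went along with another level of the 10 genes. None of the 10 genes passed the test: 0 of 10 were called at an adjusted p under 0.05 by edgeR's quasi-likelihood test, where 0% of the 15299 genes tested were called. At an unadjusted p under 0.05 the count was 0 of 10 genes, against 382 genes (2.5%) in the whole table, and DESeq2 and limma-voom called 0 genes as well, with 433 and 317 genes at an unadjusted p under 0.05. The sgNT and sgCda levels overlapped for 10 of 10 genes, whereas 0.601% of all genes had groups that did not overlap. The log2 fold change (sgCda over sgNT) was positive for 9 of 10 genes, with a median of 0.14, and 52.9% of all genes had a positive value, with a median of 0.0078. Much of that sign count rested on single tumors: 6 of 10 values were positive without sgCda tumor 3, 7 without sgNT tumor 2 and 5 without sgCda tumors 3 and 4.

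**Figure D2:**
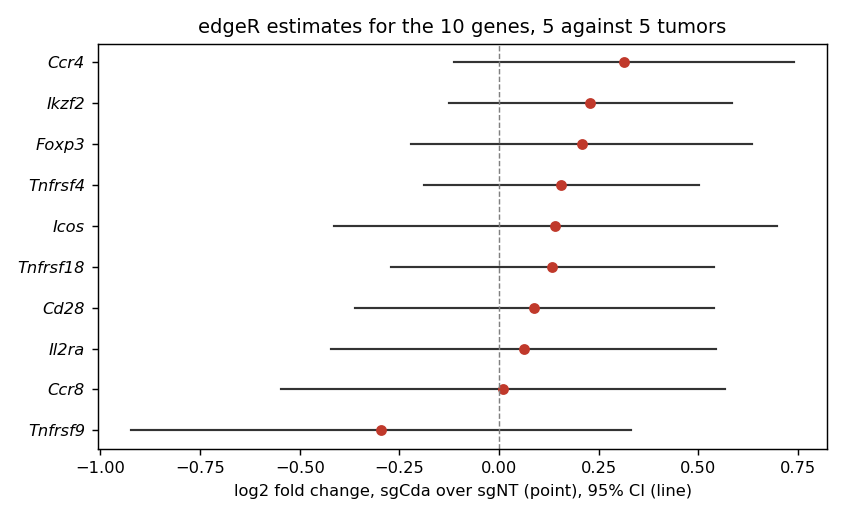
edgeR log2 fold change of each gene, sgCda over sgNT (point), with its 95% confidence interval (line), for 5 against 5 tumors. Every interval includes 0, from Ccr4 at 0.31 to Tnfrsf9 at -0.30.

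Foxp3, the lineage-defining factor, read 2.90, 3.03, 3.75, 3.83 and 5.00 CPM in sgNT tumors 1 to 5. In sgCda tumors 1 to 5 it read 4.03, 4.02, 4.84, 5.35 and 3.16 CPM. The highest tumor was thus in the sgCda group and the lowest in the sgNT group, with 4 of 5 sgCda tumors above the sgNT mean, but 1 sgCda tumor lay above the sgNT range and the groups overlapped. edgeR gave a log2 fold change of 0.21 ± 0.19 (SE) and an adjusted p of 0.9996. In percent this is a difference of 15.4, with a 95% interval from -14.2 to 55.3. The value was 0.12 without sgCda tumor 4, where Foxp3 was highest, 0.13 without sgNT tumor 1 and 0.34 without sgNT tumor 5. Foxp3 rested on 86 to 199 counts a tumor, and its coefficient of variation over the tumors, 21.2%, exceeded the 8.66% that counting alone would give.

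Ikzf2 encodes Helios, a zinc finger factor found in most thymus-derived regulatory T cells and in some NK and other T cells. It read 19.6, 16.5, 21.5, 16.7 and 15.5 CPM in sgNT tumors 1 to 5, and 21.9, 23.4, 16.2, 27.9 and 15.9 CPM in sgCda tumors 1 to 5. sgCda tumors 1, 2 and 4 lay above the sgNT range, whereas tumors 3 and 5 were among the lowest of all. Its edgeR log2 fold change was 0.23 ± 0.16 (SE), with an adjusted p of 0.9996. The 95% interval of the percent difference ran from -8.38 to 49.9, and the log2 fold change was 0.11 without sgCda tumor 4.

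Il2ra, the chain that gives the interleukin-2 receptor its high affinity, read 19.9, 16.1, 30.3, 27.7 and 21.2 CPM in sgNT tumors 1 to 5. The sgCda tumors read 21.7, 20.7, 38.0, 20.9 and 18.8 CPM. One sgCda tumor, number 3, was the highest of all, and the other sgCda tumors lay inside the sgNT range. On the log2 scale sgCda minus sgNT was 0.061 ± 0.22 (SE), with an edgeR adjusted p of 0.9996. It was -0.17 without sgCda tumor 3 and -0.045 without sgNT tumor 2.

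Ccr8, a chemokine receptor enriched on regulatory T cells in tumors, read 4.45, 2.27, 5.92, 3.74 and 3.57 CPM in sgNT tumors 1 to 5 and 4.29, 5.57, 3.89, 3.22 and 3.07 CPM in sgCda tumors 1 to 5. Both the highest and the lowest tumor were in the sgNT group, so that all sgCda tumors lay inside its range. For Ccr8 the log2 fold change was 0.0085 ± 0.25 (SE), with an edgeR adjusted p of 0.9996 and a 95% interval of the percent difference from -31.6 to 48.0. Its sign was negative when any of 5 tumors was left out, the lowest value being -0.14 without sgNT tumor 2. Those tumors were sgNT 2, 4 and 5 and sgCda 1 and 2.

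Ccr4, the receptor for CCL17 and CCL22 on regulatory and helper T cells, had the largest positive difference of the 10 genes and the lowest level. It read 0.944, 0.790, 1.12, 1.32 and 1.18 CPM in sgNT tumors 1 to 5 and 1.31, 1.52, 1.40, 1.35 and 1.08 CPM in sgCda tumors 1 to 5. All 5 sgCda tumors lay above the sgNT mean and 3 above the sgNT range, but sgCda tumor 5 was below 3 of the sgNT tumors. For Ccr4 the log2 fold change was 0.31 ± 0.19 (SE), with an unadjusted p of 0.134 and an adjusted p of 0.9996 by edgeR. No tumor had more than 56 counts, and the coefficient of variation of 18.6% was close to the 15.8% given by counting.

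Icos and Cd28 encode related costimulatory receptors, ICOS being induced on activated T cells and CD28 present before activation. Icos read 17.9, 15.5, 26.2, 28.3 and 19.6 CPM in sgNT tumors 1 to 5 and 18.3, 22.1, 41.1, 17.5 and 19.4 CPM in sgCda tumors 1 to 5. Cd28 read 14.0, 15.4, 19.8, 16.6 and 13.0 CPM in the sgNT tumors and 14.6, 17.8, 26.2, 12.8 and 12.4 CPM in the sgCda tumors. sgCda tumor 3 was the highest of the 10 for both genes, and for Cd28 the sgCda group also held both tumors below the sgNT range, numbers 4 and 5. Icos had a log2 fold change of 0.14 ± 0.25 (SE) and Cd28 one of 0.088 ± 0.20 (SE), each with an edgeR adjusted p of 0.9996. Without sgCda tumor 3 they were -0.15 and -0.13.

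Among the TNF receptor family genes, which lower the threshold for T cell activation and prolong survival, Tnfrsf4 read 8.53, 7.30, 12.6, 10.6 and 9.60 CPM in sgNT tumors 1 to 5 and 10.1, 11.4, 11.1, 13.0 and 8.70 CPM in sgCda tumors 1 to 5. Tnfrsf18 read 9.10, 7.01, 13.7, 11.02 and 10.3 CPM in the sgNT tumors and 10.7, 11.1, 14.4, 11.4 and 8.42 CPM in the sgCda tumors. For both genes sgNT tumor 2 was the lowest of all and sgCda tumor 5 the lowest of its group. Their log2 fold changes were 0.16 ± 0.16 (SE) for Tnfrsf4 and 0.13 ± 0.18 (SE) for Tnfrsf18, each with an edgeR adjusted p of 0.9996. Without sgNT tumor 2 they were 0.066 and 0.022, and without sgNT tumor 3 they were 0.27 and 0.26. Tnfrsf4 was 0.086 without sgCda tumor 4, and Tnfrsf18 was 0.027 without sgCda tumor 3 and 0.22 without sgCda tumor 5.

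Tnfrsf9 was the gene with the negative value and the widest spread. It read 37.1, 26.7, 71.1, 73.9 and 41.8 CPM in sgNT tumors 1 to 5 and 32.6, 35.7, 59.5, 30.9 and 45.4 CPM in sgCda tumors 1 to 5. The highest and the lowest tumor were both in the sgNT group, where tumors 3 and 4 stood well above the other 3. Tnfrsf9 had a log2 fold change of -0.30 ± 0.29 (SE), with an edgeR adjusted p of 0.9996, and the 95% interval of the percent difference ran from -47.3 to 25.8. Its coefficient of variation was 37.2%, against 2.57% from counting. The negative sign held in all 20 alternative settings tried, with values between -0.47 and -0.12. It was -0.47 without sgCda tumor 3, -0.46 without sgNT tumor 2, -0.13 without sgNT tumor 3 and -0.12 without sgNT tumor 4.

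The genes did not share 1 order of tumors. sgCda tumor 3 was highest for 4 of them (Il2ra, Icos, Cd28 and Tnfrsf18) and sgCda tumor 4 for 3 (Foxp3, Ikzf2 and Tnfrsf4). At the lower end, sgNT tumor 2 was lowest for 7 of 10.

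**Figure D3:**
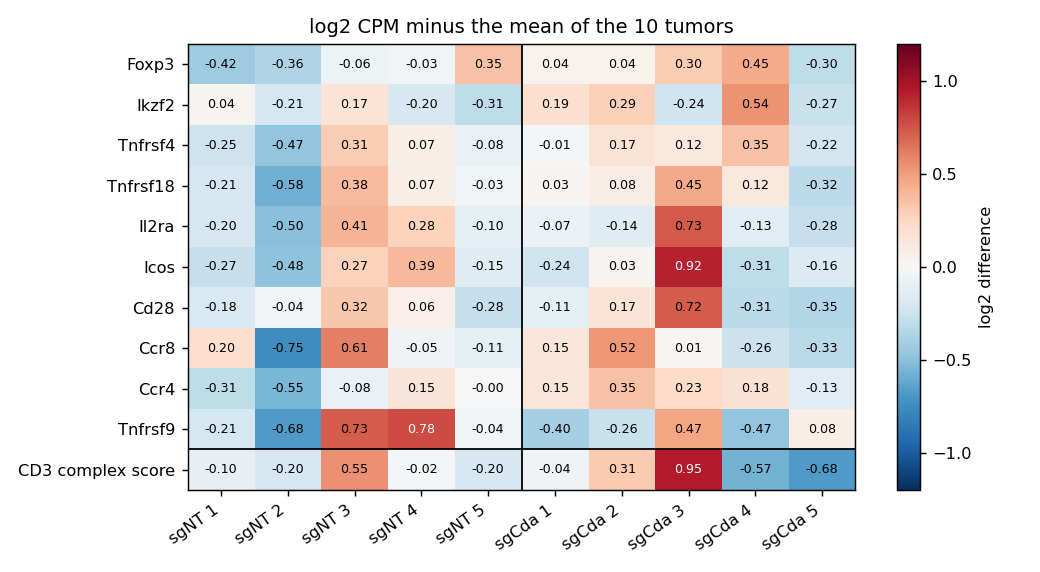
Difference of log2 CPM from the mean of the 10 tumors for each gene, with the CD3 complex score (mean log2 CPM of Cd3d, Cd3e, Cd3g and Cd247) in the bottom row. sgCda tumor 3 is high for Icos (0.92), Il2ra (0.73), Cd28 (0.72) and the CD3 score (0.95), and sgCda tumor 4 is high for Ikzf2 (0.54) and Foxp3 (0.45) with a low CD3 score (-0.57).

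The level of each gene was next set against the CD3 complex score, a measure of T cell transcripts, over the 10 tumors (log2 CPM, permutation p, adjusted over 12 relations). Cd28 followed it most closely, with Pearson's r of 0.96 (p = 1e-05, the smallest the permutations can give, adjusted p = 0.00012) and Spearman's rho of 0.93 (adjusted p = 0.00384), and r was 0.87 without the 2 tumors farthest from the median score, sgCda 3 and sgNT 3. Icos had an r of 0.80 (p = 0.00613, adjusted p = 0.0170) and a rho of 0.77 (adjusted p = 0.0351), and Il2ra an r of 0.79 (p = 0.00708, adjusted p = 0.0170) and a rho of 0.76 (adjusted p = 0.0351). Without those 2 tumors r dropped to 0.39 for Icos and 0.29 for Il2ra. Leaving out the tumors farthest out on the score also narrows its range, which lowers r by itself. This check therefore cannot decide how far both relations rested on those 2 tumors.

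Foxp3 and Ikzf2 had r of 0.20 (adjusted p = 0.635) and -0.059 (adjusted p = 0.870) with the CD3 score, and rho of 0.10 and 0.16 by permutation. Between these lay Tnfrsf18 at 0.70 (adjusted p = 0.0534), Ccr8 at 0.57 (adjusted p = 0.140), Tnfrsf9 at 0.51, Tnfrsf4 at 0.37 and Ccr4 at 0.34. Tnfrsf18 lay at the threshold, since its adjusted p was 0.0492 with another random seed and 0.0503 over every ordering of the tumors, and r was 0.30 without sgCda tumor 3 and sgNT tumor 3. Ccr8 passed by rank alone, with a rho of 0.77 (adjusted p = 0.0351). Whether the correlations of Foxp3 and Cd28 differ was not tested. Removing the group means left r at 0.96 for Cd28, 0.80 for Icos and 0.79 for Il2ra.

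The adjacent genes Tnfrsf4 and Tnfrsf18 moved together across tumors, with r of 0.88 (permutation p = 0.00106, adjusted p = 0.00636) and rho of 0.90 (adjusted p = 0.00402), and r stayed at 0.88 without sgCda tumor 4 and sgNT tumor 2. Cd28 and Icos had an r of 0.85 (permutation p = 0.00397, adjusted p = 0.0159), but rho was 0.65 (adjusted p = 0.0830) and r was 0.47 without sgCda tumor 3 and sgNT tumor 3. Pairs of the 10 genes that are not neighbours were not correlated with each other. Moving together was not particular to neighbours. The log2 ratio of Icos to Il2ra, on different chromosomes, had an SD of 0.141 over the tumors, and that of Tnfrsf4 to Tnfrsf18 one of 0.150.

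Because the T cell content differed between tumors, Foxp3 was also expressed relative to other T cell transcripts of the same tumor. Per 100 counts of the CD3 complex, the sgNT tumors 1 to 5 held 2.29, 2.51, 1.94, 2.99 and 4.31 Foxp3 counts, and the sgCda tumors 3.12, 2.41, 1.83, 5.99 and 3.82. sgCda tumors 3 and 4 formed the lowest and the highest value of all 10. The mean log2 ratio was 0.23 higher in sgCda tumors (exact permutation test, two-sided p = 0.548, adjusted over 3 ratios p = 0.563, smallest possible p = 0.00794), and -0.0039 without sgCda tumor 4.

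Relative to Cd4, a co-receptor that myeloid cells may also express, Foxp3 had a median ratio of 0.365 (0.341 to 0.518) in sgNT and 0.402 (0.332 to 0.564) in sgCda tumors, a log2 difference of 0.11 (exact permutation p = 0.563, adjusted p = 0.563). Cd8a counts per Foxp3 count, a transcript version of the CD8 to regulatory T cell ratio, had a median of 30.7 (15.7 to 36.0) in sgNT and 22.4 (10.3 to 44.2) in sgCda tumors. Here the log2 difference was -0.29 (exact permutation p = 0.524, adjusted p = 0.563), and -0.015 without sgCda tumor 4. The 2 extreme tumors of this ratio, sgCda 3 and sgCda 4, were again in 1 group.

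**Figure D4:**
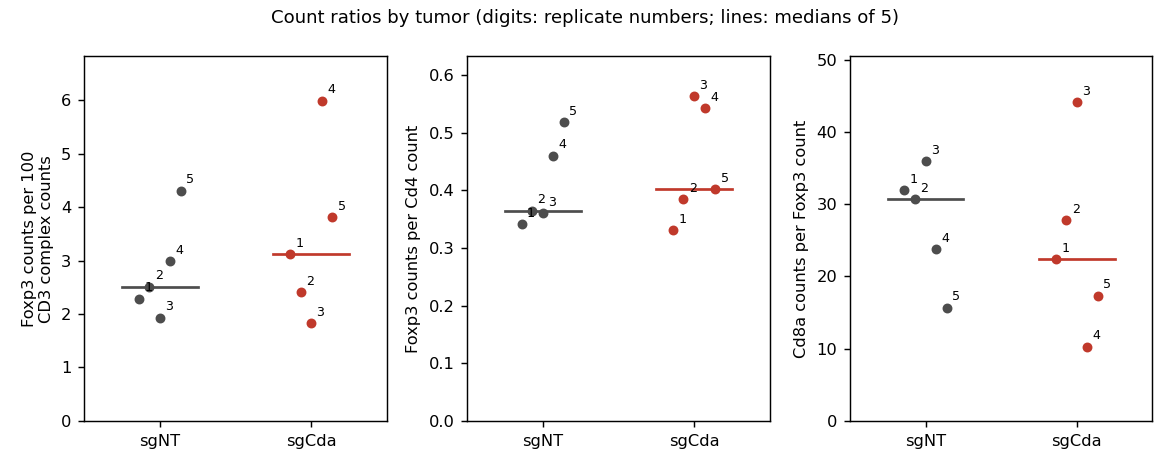
Foxp3 counts per 100 CD3 complex counts (left), Foxp3 counts per Cd4 count (middle) and Cd8a counts per Foxp3 count (right) in each tumor. Digits give the tumor number and lines the median of 5, and the groups overlap in all 3 panels.

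Taken per CD3 count, sgCda tumor 3 was lowest for 7 of the 10 genes and sgCda tumor 4 highest for 6, Foxp3 included in both. All genes share that denominator, the CD3 sum. It was 265 CPM in sgCda tumor 3, the highest, and 89.2 CPM in sgCda tumor 4, where only sgCda tumor 5 was lower (82.9 CPM). A gene at the same level in both tumors would thus read lower in the former by the denominator alone. Ikzf2 ranged from 6.13 counts per 100 CD3 counts in sgCda tumor 3 to 31.3 in sgCda tumor 4, with sgNT tumors between 11.1 and 15.5. In CPM it read 16.2 and 27.9 in these 2 tumors. Cd28 ranged only from 9.90 to 15.0. The part of the muscle transcripts in sgCda tumor 3, and of the reads outside genes in sgCda tumor 4, in these values was not tested.

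The ligands of the receptors were described from a fixed list of 11 genes. None passed the test (0 of 11 called, 0 at an unadjusted p under 0.05), and 9 log2 fold changes were positive and 2 negative, with a median of 0.15. Ccl8, which in mice binds CCR8, was the most abundant, at 68.9 to 155 CPM in sgNT and 115 to 200.3 CPM in sgCda tumors, and had the largest positive value of the list, 0.29 ± 0.22 (SE, edgeR adjusted p = 0.9996). Tnfsf18, the GITR ligand, had the lowest, -0.30 ± 0.36 (SE, edgeR adjusted p = 0.9996), at 1.73 to 4.86 CPM in sgNT and 1.18 to 4.30 CPM in sgCda tumors. Ccl8 was 0.14 without sgNT tumor 2 and 0.17 without sgCda tumor 1. Tnfsf18 was -0.12 without sgNT tumor 1, -0.10 without sgCda tumor 3, -0.46 without sgNT tumor 4 and -0.52 without sgCda tumor 2.

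For the CCR4 ligands, Ccl22 read 21.9 to 48.7 CPM in sgNT and 25.7 to 52.1 CPM in sgCda tumors, and Ccl17 read 5.12 to 21.4 and 4.90 to 22.0 CPM. The B7 ligand Cd86 of CD28 read 48.1 to 76.4 and 48.8 to 77.6 CPM, and Icosl 18.5 to 32.8 and 17.6 to 39.4 CPM. Il2 was close to the limit of detection in both groups, at 0.158 to 0.691 and 0.0709 to 0.783 CPM. All of these ranges overlapped. The TNF family ligands of OX40 and 4-1BB, Tnfsf4 and Tnfsf9, read 0.704 to 1.45 and 5.09 to 9.30 CPM in sgNT tumors and 0.671 to 1.56 and 6.31 to 8.11 CPM in sgCda tumors. Cd80, the other B7 ligand, read 7.44 to 11.6 and 8.16 to 12.6 CPM, and Ccl1, the other CCR8 ligand, 2.70 to 5.98 and 1.71 to 6.88 CPM.

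Of 19 other regulatory T cell genes, 18 were tested, with 13 positive and 5 negative values, a median of 0.044, and 0 at an unadjusted p under 0.05. Gpr83 was too low to be tested. Maf, a factor of effector regulatory and follicular helper T cells that macrophages also make, had the largest value, 0.28 ± 0.23 (SE), and Lrrc32 (GARP), which displays latent TGF-beta, the lowest, -0.16 ± 0.17 (SE), both with an edgeR adjusted p of 0.9996. Maf was 0.026 without sgCda tumor 3, where it read 181 CPM against 58.7 to 108 CPM in the other tumors. Lrrc32 was -0.013 without sgNT tumor 5 and -0.073 without sgCda tumor 2.

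The 18 receptor partners and signal transducers had 10 positive and 8 negative values with a median of 0.017. Of these 1 had an unadjusted p under 0.05, the adaptor Traf3. It read 72.1 to 81.6 CPM in sgNT and 68.4 to 74.8 CPM in sgCda tumors, with 0 of 5 sgCda tumors above the sgNT mean. By edgeR its log2 fold change was -0.13 ± 0.054 (SE), with an unadjusted p of 0.0411 and an adjusted p of 0.9996. Birc2 (cIAP1), a ubiquitin ligase recruited to TNF receptors, had the smallest p among the positive values, at 0.18 ± 0.13 (SE) with an edgeR adjusted p of 0.9996. It was 0.063 without sgCda tumor 4, its highest at 65.4 CPM.

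Among 7 other costimulatory TNF family genes, 4 were positive and 3 negative, with a median of 0.044 and 0 at an unadjusted p under 0.05. Tnfrsf25 (DR3), which is carried by regulatory T cells, had a log2 fold change of 0.68 ± 0.46 (SE, edgeR adjusted p = 0.9996) that came from sgCda tumor 4. That tumor read 27.6 CPM against 4.53 to 8.15 CPM in the others, and the value was -0.077 without it. Tnfrsf14 (HVEM) had the lowest value, -0.12 ± 0.090 (SE), and -0.057 without sgCda tumor 5.

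Of the helper T cell lineage factors, Gata3, the Th2 factor, which regulatory T cells and innate lymphoid cells also use, read 6.44, 6.06, 7.94, 7.76 and 6.96 CPM in sgNT tumors 1 to 5 and 9.01, 9.76, 9.01, 13.7 and 7.78 CPM in sgCda tumors 1 to 5. All 5 sgCda tumors lay above the sgNT mean and 4 above the sgNT range, with tumor 5 inside it. For Gata3 the log2 fold change was 0.49 ± 0.16 (SE), with an unadjusted p of 0.0101 and an adjusted p of 0.9996 by edgeR, so that it did not pass the correction. Epcam (4 sgCda tumors above the sgNT range) and Msln (3 above it, log2 fold change 0.36 ± 0.19 SE) were also higher in most sgCda tumors without passing. The epithelial keratins were not: Krt8 had a log2 fold change of -0.076 ± 0.17 (SE), Krt18 -0.016 ± 0.19 (SE) and Krt19 0.26 ± 0.30 (SE). For these keratins 1, 2 and 2 sgCda tumors lay above the sgNT mean. The part of Epcam and Msln in the Gata3 value was not tested. All 4 helper T cell lineage factors were positive, and 2 of them had an unadjusted p under 0.05 by edgeR. Over all 5 lists, 58 of 59 genes were tested, 40 were positive (69.0%, against 52.9% of all genes tested) and 18 negative, and 0 were called. An unadjusted edgeR p under 0.05 was found for 3 of these 58 genes, against 382 of all 15299 genes tested.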

How the data were processed

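RNA of 10 tumors was sequenced by the authors from a stranded poly(A) library kit. The submitters' processing notes and methods name FastQC 0.11.5, TopHat with Bowtie2 against mm10 and HTSeq 07.2. The annotation release and strand setting are not given in the sources used here. The deposited values are raw counts per gene, not normalized by the authors. The 5 summary lines were dropped, and 0 columns belonged to no sample. Groups came from the sample titles. edgeR 4.0.16 (R 4.3.3) kept 15299 genes (filterByExpr, minimum count 10, total 15), scaled by TMM and fitted a quasi-likelihood model with no covariates, with Benjamini-Hochberg adjustment over all genes tested (threshold 0.05). CPM use the library totals scaled by TMM, log2 CPM have a prior count of 2, and RPKM use exonic lengths from a GENCODE annotation of GRCm38. Ratios were tested by exact permutation over 252 assignments, correlations by 100000 resamples; another random seed and every ordering of the tumors were added after seeing the data, when a change of seed moved 1 relation across the threshold. The scripts were tested on simulated data. DESeq2 1.42.0, limma 3.58.1, other scalings and filters, a replicate block, a CD3 covariate and leaving out tumors were alternatives. Of each list the genes named were those with the smallest p in each direction, the ligands of the receptors, and exceptions named as such. The members and lists were chosen with earlier results of these data known. Of 130 listed genes, 1 (Ccl21a) had no row, and the values of 1 are not reported here. Depth ranged from 28051907 to 39484964 counts.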

Additional observations from a re-analysis of the deposited data

Results flagged for a closer look

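Of 44 groups of 5 log2 CPM values checked, 6 held a tumor whose gap to its nearest neighbour exceeded 0.71 of the group's range (Dixon's test at 95%), where chance gives about 1 in 20, or 2.2. Il2ra reached 5.25 in sgCda tumor 3, against 4.24 to 4.44 in the other sgCda tumors. Icos reached 5.36 in the same tumor, against 4.13 to 4.47, and Maf 7.50, against 6.39 to 6.68. Lrrc32 was 2.43 in sgCda tumor 2, with the other sgCda tumors at 2.86 or above. Traf3 was 6.17 in sgNT tumor 5, against 6.30 to 6.35 in the other sgNT tumors. Tnfrsf25 was 4.79 in sgCda tumor 4, against 2.20 to 2.91.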

How the results depend on the processing

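Under each of 20 alternatives 0 genes were called, none of the 10 genes and none of the listed genes among them, and the smallest unadjusted p of any of the 10 was 0.0685. The number of genes at an unadjusted p under 0.05, 382 in the reported fit, was 280 to 747 with 1 tumor left out, 830 with every gene counted in any tumor and 719 with sample quality weights. Foxp3, Ikzf2, Ccr4, Tnfrsf4 and Tnfrsf9 kept their sign throughout, though not their size, and the other 5 did not. With quality weights Il2ra was -0.054, Icos -0.051 and Cd28 -0.020, and Ccr8 was -0.0069 with no filter. With 1 tumor left out the range was -0.17 to 0.18 for Il2ra, -0.14 to 0.19 for Ccr8, -0.15 to 0.26 for Icos, -0.13 to 0.19 for Cd28, -0.077 to 0.87 for Tnfrsf25 and -0.0039 to 0.42 for Foxp3 relative to the CD3 complex. Without sgCda tumors 3 and 4 Foxp3 was 0.010, Tnfrsf4 0.048, Il2ra -0.18, Icos -0.11, Cd28 -0.079, Tnfrsf18 -0.021, Tnfsf18 0.012 and Foxp3 relative to Cd4 -0.12. Fits that leave out tumors hold fewer samples. The cause of these changes, and of those with the weights and the filter, was not tested. Of the 10 genes 3 passed in their correlation with the CD3 score, 4 with another random seed and 3 over every ordering of the tumors, both chosen after seeing the data; the gene that differed was Tnfrsf18. Gata3 had an unadjusted p of 0.00367 to 0.0267 over its alternatives and Traf3 one of 0.0175 to 0.0979.

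No clear pairing by replicate number was seen: same-numbered tumors correlated at -0.43 to 0.34 in their deviations, and 2 of 5 matched their own number best. Whether the tumors were paired by design is not given in the sources used here, and these correlations cannot decide it. With the replicate number as a block 0 genes were called and 325 had an unadjusted p under 0.05. Foxp3 was 0.22, and Foxp3 relative to the CD3 complex was 0.23.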

Other observations

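Across the 10 tumors and 15289 genes compared, the genes whose log2 CPM were most like that of Foxp3 were Tango2 (Pearson's r of 0.92), mt-Tn (0.91), Plppr4 (0.90), Slco5a1 (0.89) and Ccdc124 (0.87). All 5 were highest in sgCda tumor 4, as Foxp3 was. These are descriptions over tumors that share that library, picked as the highest of many.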
